A study of Mus musculus with 4 samples.

Results

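Expression of 8 genes of the cholesterol synthesis pathway was followed in 4 mouse hearts that had been under pressure overload for 1 week. The 8 genes are Hmgcs1, Idi1, Fdps, Fdft1, Sqle, Lss and Cyp51, which encode enzymes of the pathway, and Srebf2, which encodes its main transcriptional regulator. They are 8 of 19938 genes that the array annotation names by a single symbol, and all 8 passed the filter on dim probe sets, which left 14914 genes. The genes were selected by pathway after Sqle, which lies close to the deleted gene Fbxo32 on chromosome 15, had been seen to read lower in the knockout hearts of this same series. Their knockout minus wild type differences are therefore given as descriptions, without a test.

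Every heart had undergone transverse aortic constriction (TAC), a narrowing of the aorta that raises the load on the left ventricle, so all groups share the surgery and there was no unoperated group. The wild type group was 1 heart. The knockout group was 3 hearts from mice lacking MAFbx (atrogin-1), the muscle F-box protein encoded by Fbxo32 that selects substrates for an SCF ubiquitin ligase. The labels give neither strain, age nor sex, nor how the knockout allele was built, and they number the hearts without stating that each came from its own animal. RNA from each heart was read on 1 Affymetrix Mouse Gene ST array. Values are log2 expression levels after RMA (background correction, quantile normalization and a summary per probe set), so a difference of 1 on this scale is a doubling. Levels are compared between arrays for a given gene and not between genes.

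Cholesterol is made from acetyl-CoA by way of mevalonate, isoprenoid diphosphates, squalene and lanosterol. The transcription factor SREBP2, encoded by Srebf2, is held in the endoplasmic reticulum with its escort SCAP while sterols are plentiful, and is released by proteolysis when they run low. It then binds sterol response elements in the promoters of most of the synthesis genes, so that in many cell types these genes rise and fall together. The pathway also supplies the isoprenoids used for prenylated proteins and coenzyme Q.

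Sqle and 5 further genes of the 8, Hmgcs1, Idi1, Lss, Cyp51 and Srebf2, read lower on each of the 3 knockout arrays than on the wild type array (WT 1), whereas Fdps and Fdft1 did not. Over all genes tested, 24.6% lay below WT 1 on all 3 knockout arrays and 23.9% lay above it on all 3. The median log2 difference of the 8 genes was -0.37, against 0.00 over all genes tested. Sqle stood at -0.84, about 1.79-fold lower, and Idi1 at -0.61, about 1.53-fold lower. The differences of the other 4 lay between -0.42 and -0.27. In 4 of the 8 genes, Sqle, Idi1, Lss and Hmgcs1, the step from the wild type array to the nearest knockout array was larger than the range of the 3 knockout arrays, a criterion met by 7.26% of all genes tested. Because a reading below wild type helped to choose these genes, the counts describe them and show no more.

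The 4 arrays differed in other ways that touch these readings. The median of the tested genes ran from 6.84 to 6.87 per array. Fbxo32 itself stood at 7.54 on WT 1, against 5.65, 5.61 and 5.56 on knockout arrays 1, 2 and 3, a log2 difference of -1.93 that missed the threshold (limma, adjusted p = 0.053); whether its probes lie in the deleted part was not analysed here. Xist, the RNA that silences an X chromosome, was at 4.13 on WT 1 and 3.20 on knockout array 3, but 9.18 and 9.52 on knockout arrays 1 and 2, and the Y-linked gene Eif2s3y gave the opposite split. Genotype and this division are thus partly confounded, and the comparison of knockout 3 with wild type 1 is the only one that stays on one side of it. Heart muscle genes were present throughout, with Myh6, the adult alpha-myosin gene, between 13.12 and 13.28 on all 4 arrays. Of 6 liver markers Alb and Ttr lay under the filter level of 4.71, whereas Apoa1, Apoa2, Ahsg and Fgb passed it. Ahsg varied most, from 5.70 on knockout array 3 to 7.34 on knockout array 2, with 6.22 on WT 1.

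Promoter sequences were examined because sterol-regulated genes share short elements there. RefSeq promoter windows on GRCm38.p6, from 250 bases before to 50 bases after the start site, were matched by symbol for 5 of the 8 genes (Hmgcs1, Idi1, Srebf2, Lss and Cyp51); Sqle, Fdft1 and Fdps were not matched. The 250 bases before the start site are shown for Hmgcs1, the one member among the 5 with a match to the SREBP site letters, for Idi1, the gene with the largest difference among the 5, and for Srebf2, the regulator. They lie at chr13:119690101-119690350 (Hmgcs1, plus strand), chr13:8885356-8885605 (Idi1, plus strand) and chr15:82147019-82147268 (Srebf2, plus strand). Capitals mark matches to CCAAT, the box bound by NF-Y, or to the SREBP site letters, on either strand.
Hmgcs1: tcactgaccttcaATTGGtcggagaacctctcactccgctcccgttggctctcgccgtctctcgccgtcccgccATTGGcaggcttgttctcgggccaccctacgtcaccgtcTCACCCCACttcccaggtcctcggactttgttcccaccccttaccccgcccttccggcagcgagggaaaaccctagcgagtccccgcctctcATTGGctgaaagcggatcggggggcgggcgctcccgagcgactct
Idi1: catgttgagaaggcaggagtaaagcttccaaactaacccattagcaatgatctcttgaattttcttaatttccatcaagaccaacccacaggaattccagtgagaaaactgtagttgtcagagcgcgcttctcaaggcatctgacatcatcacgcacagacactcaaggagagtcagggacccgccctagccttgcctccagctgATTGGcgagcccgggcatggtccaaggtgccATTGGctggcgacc
Srebf2: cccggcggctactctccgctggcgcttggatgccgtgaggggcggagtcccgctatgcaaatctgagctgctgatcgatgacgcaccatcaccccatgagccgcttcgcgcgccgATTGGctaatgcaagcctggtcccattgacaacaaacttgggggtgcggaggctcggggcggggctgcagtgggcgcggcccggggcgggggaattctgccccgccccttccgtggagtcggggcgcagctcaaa

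The core of the SREBP site, CACCCCAC, was searched on both strands of the whole windows, together with its longer form TCACNCCAC. Both were found in Hmgcs1, where they overlap in a single stretch that starts 137 bases before the start site, and in none of the other 4 windows. Over all 32851 promoter windows CACCCCAC was present in 2.87% and TCACNCCAC in 1.24%. Of 80 windows of the other listed pathway genes, 2 held the former and 1 the latter. CCAAT was present in all 5 windows and in 37.4% of all windows, with 4 matches in Hmgcs1, 2 in Idi1 and 1 each in Srebf2, Lss and Cyp51. The Sp1 box GGGCGG was likewise present in 5 of 5 and in 35.7% of all windows, and the E-box CACGTG in 0 of 5 and in 7.15% of all windows. These are matches of letters only.

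**Figure D1:**
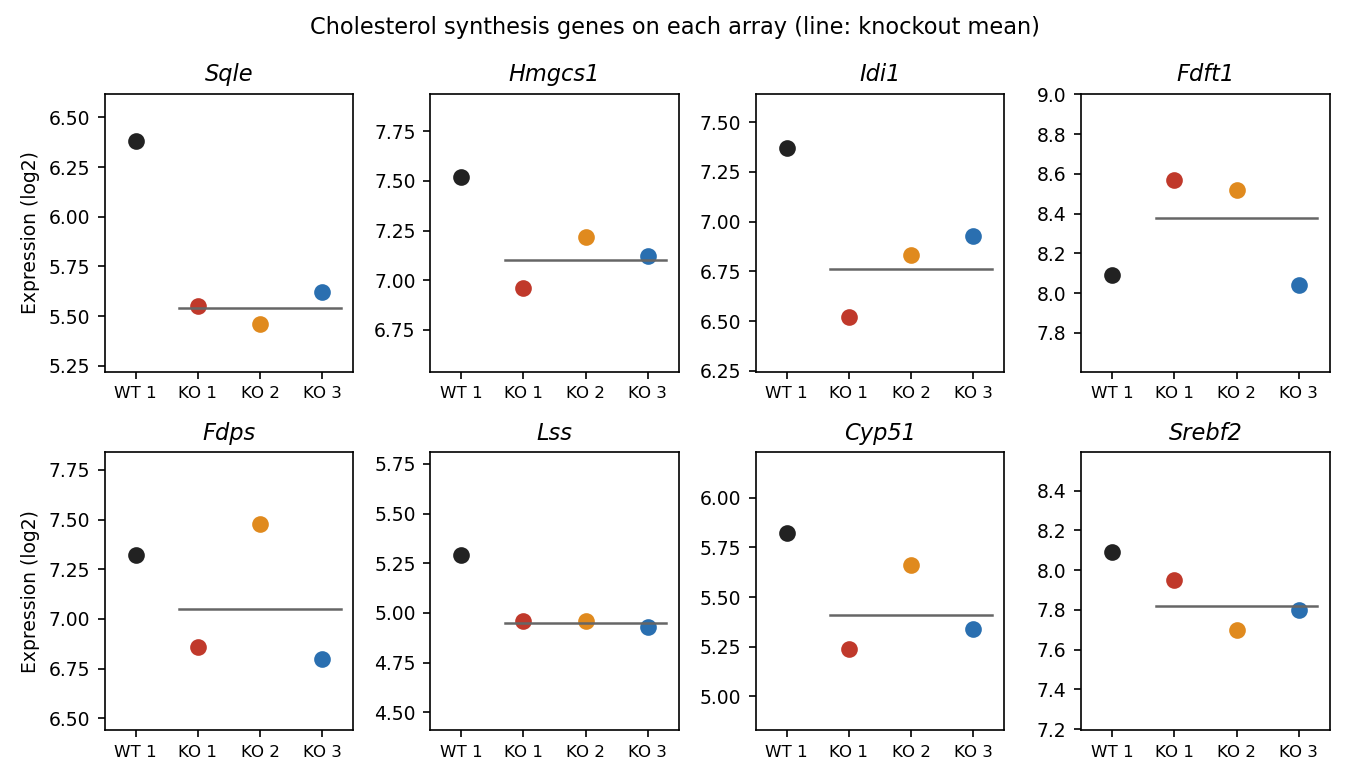
Log2 expression of the 8 genes on each array, with 1 point per array and a line at the mean of the 3 knockout arrays; each panel spans the same range of 1.4 log2 units. The 3 knockout points of Sqle lie between 5.46 and 5.62, under the wild type point at 6.38, whereas for Fdft1 and Fdps the wild type point lies within the knockout range.

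Among the enzymes that make isoprenoid diphosphates, the first member is Hmgcs1, the cytosolic synthase that forms HMG-CoA. It read 7.52 in the wild type heart against 6.96, 7.22 and 7.12 in knockout hearts 1, 2 and 3. All 3 knockout values were lower, with a knockout mean of 7.10 ± 0.13 (SD, n = 3) and a log2 difference of -0.42. Its promoter is the one above with the capitals of the SREBP site.

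Idi1, the isomerase that interconverts the pathway's isoprene building blocks, read 7.37 in the wild type heart against 6.52, 6.83 and 6.93 in knockouts 1, 2 and 3. Knockout 1 was the lowest, and the knockout mean was 6.76 ± 0.21 (SD, n = 3), a log2 difference of -0.61. A second, dimmer probe set annotated to Idi1 gave the same order, with 7.37 against 6.26, 6.65 and 6.76 and a difference of -0.81. Both carry the same transcript accessions, and which of them reads the functional locus was not analysed here.

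Fdps, which joins the isoprene units into farnesyl diphosphate, the branch point towards sterols, prenylated proteins and coenzyme Q, divided the knockout hearts. It read 7.32 in the wild type heart, 6.86 and 6.80 in knockouts 1 and 3, and 7.48 in knockout 2, the highest value of the 4. The log2 difference of -0.27 was smaller than the knockout SD of 0.38 (n = 3). It was -0.49 without knockout 2, -0.18 without knockout 1 and -0.15 without knockout 3.

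At the step that commits farnesyl diphosphate to sterols stands Fdft1, squalene synthase, the only member with a knockout mean above the wild type value. It read 8.09 in the wild type heart, 8.57 and 8.52 in knockouts 1 and 2, and 8.04 in knockout 3. Knockout 3 matched the wild type heart to within 0.05, while the arrays with high Xist were higher, and the mean difference of 0.29 equalled the knockout SD of 0.29 (n = 3). Without knockout 3 the difference was 0.46, and without knockout 1 it was 0.19. A second probe set annotated to Fdft1 gave 7.20 in the wild type heart, 7.48 and 7.44 in knockouts 1 and 2 and 6.82 in knockout 3, a mean difference of 0.05. In both probe sets knockouts 1 and 2 were above the wild type heart and knockout 3 was below it.

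Sqle, squalene epoxidase, which carries out the first oxygen-dependent step and limits the rate of the later part of the pathway, had the largest difference of the 8. It read 6.38 in the wild type heart against 5.55, 5.46 and 5.62 in knockouts 1, 2 and 3. The 3 knockout hearts lay within 0.16 of each other (mean 5.54 ± 0.08, SD, n = 3), while the gap up to the wild type heart was 0.76. Knockout 3, on the same side of the Xist division as the wild type heart, differed from it by -0.76. Knockouts 1 and 2, on the other side, differed from the same heart by -0.83 and -0.92. That side held no wild type heart.

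Lss, lanosterol synthase, which closes the epoxidised squalene into the first sterol, showed a smaller and very even difference. It read 5.29 in the wild type heart against 4.96, 4.96 and 4.93 in the knockout hearts, a mean of 4.95 ± 0.02 (SD, n = 3) and a log2 difference of -0.34. These levels lie close to the filter level of 4.71.

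Cyp51, the demethylase that acts on lanosterol, read 5.82 in the wild type heart against 5.24, 5.66 and 5.34 in knockouts 1, 2 and 3. Knockout 2 was within 0.16 of the wild type value, so the gap was smaller than the spread of the knockout hearts (mean 5.41 ± 0.22, SD, n = 3, log2 difference -0.41).

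Srebf2, the regulator, read 8.09 in the wild type heart against 7.95, 7.70 and 7.80 in knockouts 1, 2 and 3. The knockout mean was 7.82 ± 0.13 (SD, n = 3), a log2 difference of -0.27. All 3 knockout values were lower, but knockout 1 by 0.14 only, less than the knockout range of 0.25. The active form of SREBP2 is made by proteolysis, which an RNA level does not report.

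Taken array by array, 7, 6 and 8 of the 8 genes were below the wild type value in knockouts 1, 2 and 3, where 48.1%, 49.9% and 50.7% of all genes tested were. The median difference of the 8 genes was -0.51 in knockout 1, -0.31 in knockout 2 and -0.42 in knockout 3. Knockout 3, whose Xist and Eif2s3y readings match those of the wild type heart, was the array on which all 8 were lower, with differences from -0.76 (Sqle) to -0.05 (Fdft1). None of the knockout arrays was lowest throughout, since knockouts 1, 2 and 3 gave the lowest knockout value for 3, 2 and 3 of the genes.

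**Figure D2:**
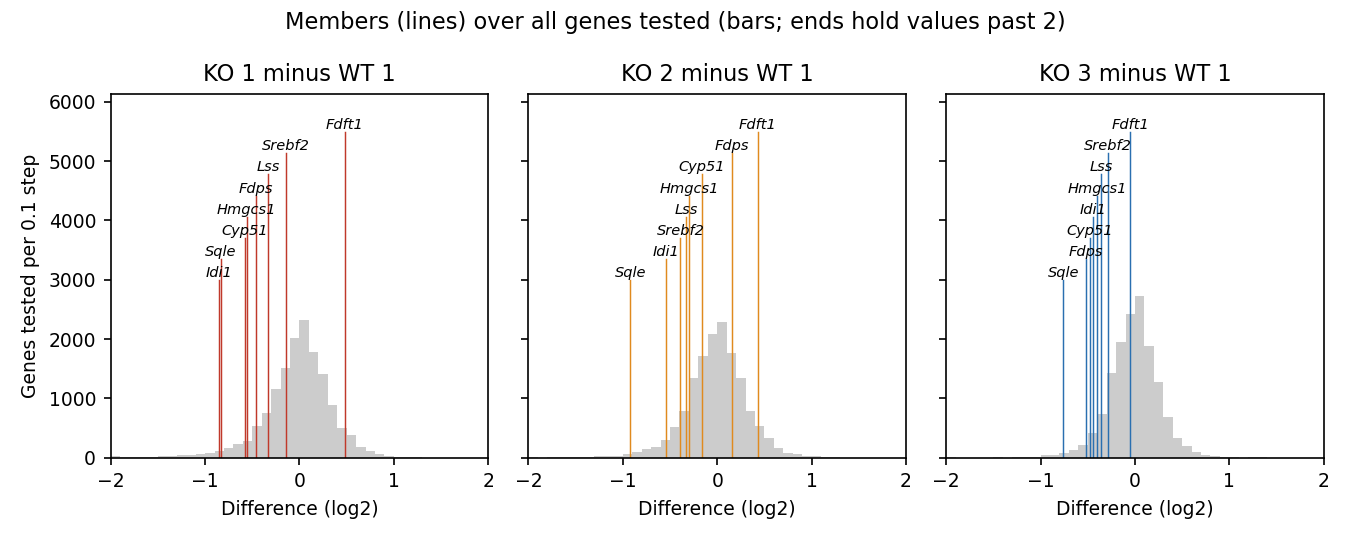
Histograms (grey bars) of the log2 difference from the wild type array over all 14914 genes tested, 1 panel per knockout array, with a line at each of the 8 genes; line heights only separate the names. Most lines lie to the left of 0, Sqle at -0.83, -0.92 and -0.76, and Fdft1 lies furthest right in each panel.

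The rest of the synthesis pathway was read from a list of 14 further enzymes, of which 11 were measured and the others were not analysed here. Of the 11, 4 were lower on all 3 knockout arrays (Msmo1, Pmvk, Nsdhl and Hsd17b7) and 2 were higher on all 3 (Tm7sf2 and Ebp). Over all genes tested the shares were 24.6% and 23.9%. The other 5 overlapped with the wild type value, and the median log2 difference was -0.07. The gap to WT 1 was larger than the knockout range in 0 of the 4 lower genes, where 7.26% of all genes met this criterion. It was larger in both of the higher ones, Tm7sf2 (gap 0.30) and Ebp (gap 0.08). The share of all genes for that direction was not computed. In the limma fit over all genes (two-sided, Benjamini-Hochberg adjustment), 0 of 11 passed an adjusted p of 0.05, and 0 had an unadjusted p under 0.05. Across the whole array 1 gene, Hmox1, was called, which is 0.00671% of those tested, and at an adjusted p under 0.1 there were 11 (0.0738%).

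Msmo1, the oxidase that removes methyl groups from sterols after Cyp51, was the enzyme of this list with the largest difference. It read 7.92 in the wild type heart against 7.19, 7.65 and 7.35 in knockouts 1, 2 and 3, a log2 difference of -0.52 (SE 0.222, limma adjusted p = 0.871). As with Cyp51, Fdps and Hmgcs1, knockout 2 was the nearest of the knockout hearts to the wild type heart or above it. Tm7sf2, a sterol reductase of the same stretch, went the other way with 6.18 against 6.54, 6.48 and 6.48 (log2 difference 0.32, limma adjusted p = 0.923). Pmvk, phosphomevalonate kinase, read 6.44 against 6.21, 5.98 and 6.32, a log2 difference of -0.27 (limma adjusted p = 0.945). Mvk and Mvd, the kinase and the decarboxylase on either side of it, were at 0.01 each.

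With the 7 members that are enzymes, 18 synthesis enzymes were measured. Of these, 9 were lower on all 3 knockout arrays, 2 were higher on all 3 and 7 overlapped, and the median log2 difference was -0.25. A reading below wild type helped to choose the 7 members, so the pooled counts and median describe these genes and show no more. Of the 11 enzymes that are not members, 4 were lower and 2 higher on all 3 knockout arrays, with a median of -0.07. Over all genes tested, 24.6% were lower and 23.9% higher on all 3. On knockout arrays 1, 2 and 3, 13, 10 and 15 of the 18 were below the wild type value, and of the 11 that are not members 7, 5 and 8 were, against the 48.1%, 49.9% and 50.7% of all genes given above.

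**Figure D3:**
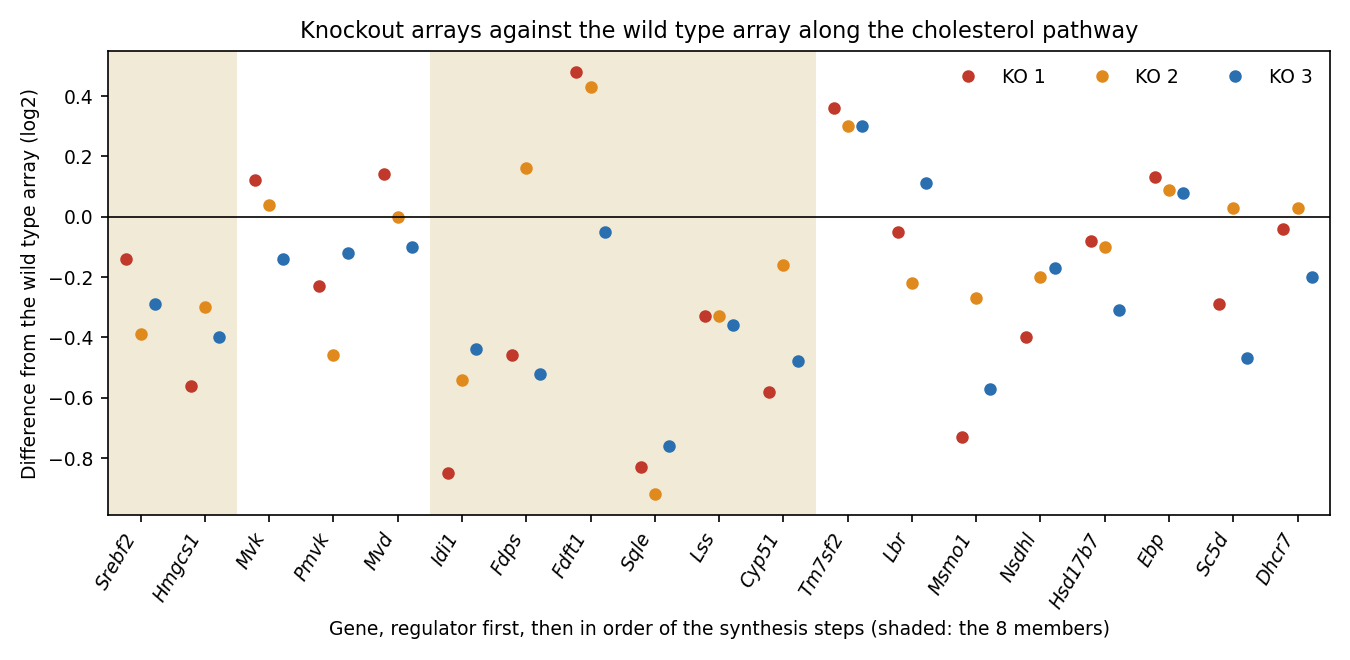
Log2 difference of each knockout array from the wild type array for Srebf2 and the 18 measured synthesis enzymes in the order of the pathway, 1 point per knockout array, with the 8 genes shaded. Sqle has the lowest trio of points, Mvk and Mvd scatter around 0, and all 3 points of Tm7sf2 and Ebp lie above 0.

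Control of SREBP processing was described by 11 measured genes of a list of 14 (the others were not analysed here). Their median log2 difference was 0.04. Of the 11, 4 lay below and 3 above WT 1 on all 3 knockout arrays, against 24.6% and 23.9% of all genes tested. Insig1, which retains the SCAP and SREBP complex in the endoplasmic reticulum and is itself an SREBP target in many cells, read 7.59 in the wild type heart against 8.21, 8.35 and 7.79 in knockouts 1, 2 and 3. All 3 knockout values were higher, with a log2 difference of 0.53 (SE 0.246, limma adjusted p = 0.885), of which knockout 3 showed 0.20. Of the 18 measured synthesis enzymes, members included, 9 were lower on all 3 knockout arrays and 2 were higher. Scap stood at 0.14 and Srebf1, the gene of the related factor that favours fatty acid synthesis, at 0.06, and both overlapped with the wild type value. Marchf6, a ubiquitin ligase of the endoplasmic reticulum that acts on squalene epoxidase protein, stood at 0.34 and Erlin2 at -0.32 (limma adjusted p = 0.939 and 0.923).

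Uptake and transport of cholesterol was read from 12 measured genes of 15 listed, with the others not analysed here. The median was 0.02, and 9 of the 12 overlapped with the wild type value. Another 2 lay below and 1 above WT 1 on all 3 knockout arrays, against 24.6% and 23.9% of all genes tested. Vldlr, a receptor for triglyceride-rich lipoproteins, read 9.42 in the wild type heart against 10.40, 10.31 and 10.01 in the knockout hearts, a log2 difference of 0.82 (SE 0.210, limma adjusted p = 0.530). Star, which moves cholesterol into mitochondria, read 7.51 against 5.70, 6.87 and 6.73, a log2 difference of -1.08 (limma adjusted p = 0.817). Scarb1, the HDL receptor, was at -0.35, with knockout 3 only 0.01 below the wild type heart.

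Efflux, storage and oxysterol formation were read from 10 measured genes (12 listed, Nr1h2 and Soat1 not analysed here), with a median of 0.05. Of the 10, 2 lay below and 3 above WT 1 on all 3 knockout arrays, against 24.6% and 23.9% of all genes tested. Ch25h, which makes an oxysterol that holds back SREBP processing, read 7.40 in the wild type heart against 5.38, 5.89 and 6.65 in knockouts 1, 2 and 3, a log2 difference of -1.43 (SE 0.428, limma adjusted p = 0.602). Cyp27a1, a mitochondrial sterol hydroxylase, read 7.18 against 8.07, 8.04 and 7.66 (log2 difference 0.74, limma adjusted p = 0.592), and Nceh1, a hydrolase of cholesteryl esters, was at 0.70 (limma adjusted p = 0.792). Abca1, the cholesterol exporter, overlapped at 0.09.

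Of 13 measured genes of the isoprenoid branch (14 listed, Pdss1 not analysed here), 10 overlapped with the wild type value. Another 2 lay below and 1 above WT 1 on all 3 knockout arrays, against 24.6% and 23.9% of all genes tested. The branch leaves the pathway at farnesyl diphosphate, and its median was 0.08. Its largest separated differences were those of Zmpste24, a protease of prenylated proteins (-0.30), Pdss2, of the coenzyme Q side chain (0.30), and Rce1, another processing protease (-0.14), with limma adjusted p = 0.923, 0.941 and 0.982.

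Fatty acid synthesis genes, many of them targets of the sister factor SREBP1, lay on both sides of the wild type values. Of 14 measured, 5 lay below and 4 above WT 1 on all 3 knockout arrays, against 24.6% and 23.9% of all genes tested. The median was -0.12. Scd2, a fatty acid desaturase, read 8.63 in the wild type heart against 7.62, 7.53 and 8.01 in the knockout hearts (log2 difference -0.91, SE 0.231, limma adjusted p = 0.524), and the desaturase gene Fads2 was at -0.62. The other 3 below were Fads1, Elovl6 and Acly, and the 4 above were Acacb, Gpam, Thrsp and Me1. Thrsp, a lipogenic regulator, was at 0.60, and Scd1 overlapped at -0.09. Over the 6 pathway lists, 71 further genes were tested and 0 passed the adjusted threshold in limma. At an unadjusted p under 0.05, 6 of the 71 were lower and 4 higher. These are larger shares than the 4.05% and 1.68% over all genes tested, a difference that was not tested. Of the 71, 26.8% lay below and 19.7% above WT 1 on all 3 knockout arrays, close to the shares over all genes, and their median was 0.01.

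Sqle and Fbxo32 lie on the same chromosome with 10 protein-coding genes between them in the reference table, all of them measured. In 9 of these that passed the filter, the log2 difference ran from -0.36 to 0.39 with a median of 0.16. Of the 9, 5 were higher on all 3 knockout arrays (Klhl38, Tmem65, Trmt12, Ndufb9 and Mtss1), 1 was lower (Fam91a1) and the others overlapped. Over all genes tested, 23.9% were higher and 24.6% lower on all 3. Mtss1, next to Sqle on the side of Fbxo32, read 7.12 in the wild type heart against 7.60, 7.47 and 7.21 in the knockout hearts. Washc5, next to Sqle on the far side, read 8.06 against 8.23, 8.13 and 8.03. Neither neighbour showed the lower reading of Sqle. Rnf139, a gene of this stretch whose product is an endoplasmic reticulum ubiquitin ligase regulated by sterols, was at 0.04.

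Extended by 10 measured genes beyond Fbxo32 and beyond Sqle, the window held 26 tested genes other than these. Of the 26, 5 lay below WT 1 on all 3 knockout arrays (19.2%, against 24.6% of all genes tested). Another 9 lay above (34.6%, against 23.9%) and 12 overlapped. Besides Fam91a1, those below were Has2, 9130401M01Rik, Nsmce2 and Myc. Myc, the growth-promoting transcription factor, was the only one of the 26 with a separated difference of 0.58 or more in size, reading 8.03 in the wild type heart, with log2 differences of -1.08, -1.03 and -0.88 in knockouts 1, 2 and 3 and a knockout mean of 7.03 (limma adjusted p = 0.333). Atad2 gave -1.09 and -0.90 in knockouts 1 and 2 but 0.17 in knockout 3.

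**Figure D4:**
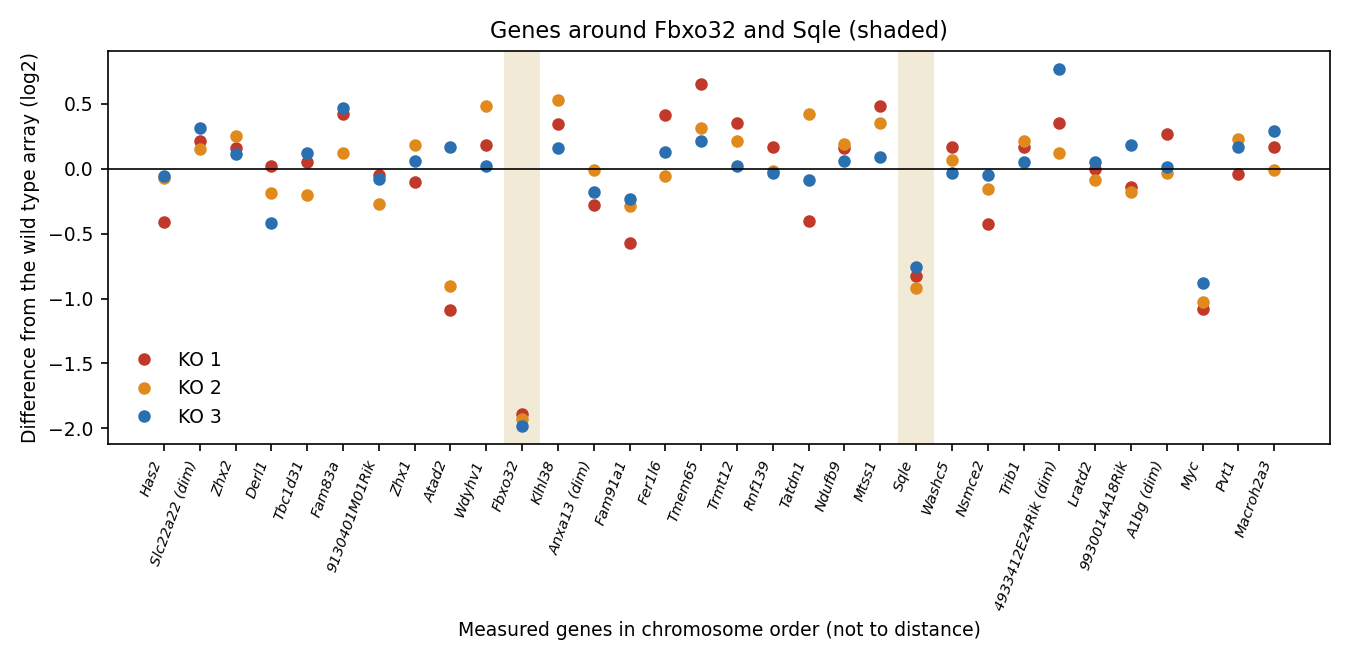
Log2 difference of each knockout array from the wild type array for 32 measured genes in chromosome order around Fbxo32 and Sqle (shaded), 1 point per knockout array; spacing shows order and not distance, and (dim) marks genes under the filter. The points of Fbxo32 lie near -1.9 and those of Sqle between -0.92 and -0.76, while the genes between them scatter around 0.

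The genes with the most similar course to Sqle were sought over the 4 arrays by the Euclidean distance between mean-centred profiles, among 14913 other genes. The nearest were Fstl3, an activin-binding protein (distance 0.04), Slc9a7, a sodium and proton exchanger (0.06), Lgals3, galectin-3 (0.06), Myd88, an adaptor of innate immune receptors (0.07), and Tmem106a (0.10). Fstl3 read 8.27 in the wild type heart against 7.44, 7.40 and 7.51 in the knockout hearts. Of the other 7 members, Idi1 was the closest to Sqle at rank 314 (distance 0.36), followed by Hmgcs1 at 672 and Lss at 709, and Fdft1 was at rank 13841. Nearest to the mean profile of the 8 genes were Emd, Gm8675, Gm9776, Nsun2 and Ccnyl1, at distances from 0.01 to 0.03. Profiles over 4 arrays, 3 of them of one group, are met by many genes, and the ranks are a description.

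Markers of other cell types were read on the same arrays, and 0 passed the adjusted threshold in limma (at an unadjusted p under 0.05, 9 macrophage markers and 1 proliferation gene were lower). Over all genes tested, 4.05% were lower at that unadjusted level. On all 3 knockout arrays, 24.6% of all genes tested were lower and 23.9% higher. Of 14 macrophage markers, among them Lgals3, 13 were lower on all 3 knockout arrays and 0 were higher. Their median differences were -1.09, -0.92 and -0.61 in knockouts 1, 2 and 3. Their summed linear intensity was 7922 in the wild type heart against 3836 to 5953 in the knockout hearts. In tissue RNA, fewer cells of a type and less RNA per cell cannot be told apart. Of 7 proliferation genes 1 was lower on all 3 and 0 higher, and their medians were -1.61, -1.24 and 0.13, with sums of 813 in the wild type heart against 286 to 854 in the knockout hearts. For 8 fibroblast markers, 1 lower and 2 higher on all 3, the medians were -1.36, -0.75 and 0.57, with sums of 15393 and 8775 to 22499. For 7 endothelial markers, 0 lower and 4 higher, they were 0.18, 0.19 and 0.46, with sums of 3104 and 3232 to 4304. For 10 cardiomyocyte markers, 1 lower and 4 higher, they were 0.13, 0.14 and -0.02, with sums of 89453 and 89312 to 94963. The 4 tested adipocyte markers, 0 lower and 1 higher, had sums of 158 and 159 to 232.

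The fibroblast and proliferation medians turned from negative in knockouts 1 and 2 to positive in knockout 3, whereas the macrophage median was lower on every knockout array, as that of the 8 genes was. The part of cell composition in the readings of the 8 genes was not tested.

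**Figure D5:**
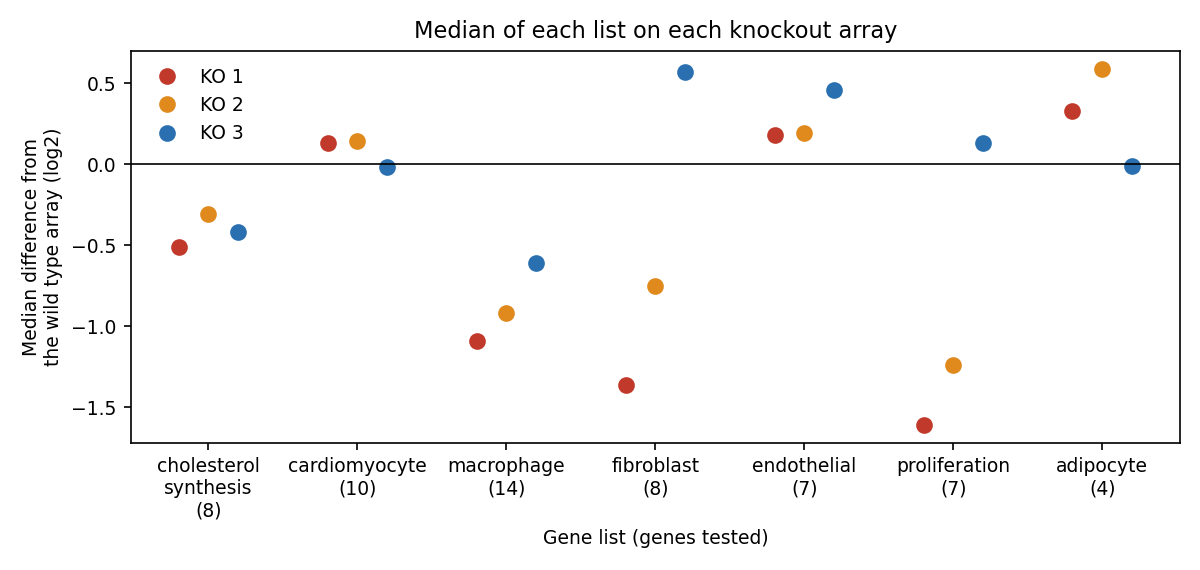
Median log2 difference from the wild type array for the 8 cholesterol synthesis genes and for markers of cell types and proliferation, 1 point per knockout array, with the number of genes tested in brackets. The cholesterol synthesis and macrophage medians are below 0 on all 3 knockout arrays, and the fibroblast and proliferation medians are above 0 in knockout 3 only.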

How the data were processed

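The deposited table holds log2 values of 35556 probe sets on 4 arrays, which the authors made with Affymetrix Expression Console and RMA, per the submitters' processing notes; no version or build is given in the sources used here. Of these probe sets 21789 had 1 gene symbol in the platform annotation, 1621 had several and 12146 were unlisted; 21698 matched a GRCm38.p6 gene by identifier, and 0 symbols changed. For 999 genes with several probe sets the one of highest mean was used, and genes under the 25th percentile of probe set means (4.71) were left out, leaving 14914.

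The knockout minus wild type contrast was fitted by limma 3.58.1 under R 4.3.3 (eBayes after lmFit, two-sided, Benjamini-Hochberg over all genes tested, threshold 0.05; 2 residual and 5.04 prior degrees of freedom). The fit takes the lone wild type array to vary as the 3 knockouts do, and p-values measure only the spread between these samples, which may be technical. An exact permutation test of 1 against 3 arrays could not reach significance. Precision is limited by the small number of arrays. The procedure was tested on simulated data. A gene was called separated when all 3 knockout arrays lay on the same side of WT 1, the wild type array.

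The members, gene lists and motifs were chosen with earlier results of these data known. Named were the 8 members, Fbxo32, up to 3 separated genes of largest difference per pathway list, fixed regulators, neighbours of Fbxo32 and Sqle with a separated difference of at least 0.58, and the 5 genes nearest to Sqle and to the members' mean profile; genes listed beside counts of 5 or fewer, Mvk, Mvd, Washc5, Rnf139, Atad2 and the marker genes were added after their values were seen. Marker genes for cardiomyocytes, macrophages, fibroblasts, endothelium, adipocytes, liver, proliferation and sex were read singly from the limma fit where they passed the filter. No test was made of a marker set. Alternatives were other scalings, filters, probe set rules, variance models, thresholds and leaving out each knockout array; knockout 3 against wild type 1 alone and the dimmer probe sets of Idi1 and Fdft1 were added after seeing the data.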

Additional observations from a re-analysis of the deposited data

How the results depend on the processing

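The count of genes called by limma over the whole array (1, Hmox1) was 0 after renewed quantile normalization and 0 with no filter on dim probe sets (859 and 1045 at an unadjusted p under 0.05), 8 with median centring, 2 with the filter at the median (Ankrd2 and Hmox1), 7 with a mean-variance trend, 9 with robust hyperparameters, 11 at an adjusted p under 0.1, and 0 to 0 on leaving out each knockout array (435 to 1582 unadjusted). The 71 other pathway genes (67 with the filter at the median) had 0 calls in all of these fits, with 3 to 13 at an unadjusted p under 0.05. Of the members, 6 to 7 lay below the wild type array on leaving out each knockout array, and their median ran from -0.48 (without knockout 2) to -0.34. With the filter at the median 5 members were left, 3 of them below, with a median of -0.27, because Sqle, Lss and Cyp51 are dimmer than that level. Of 77 single member values under alternatives 75 stayed within 1 SD of the knockout arrays and 1 moved further. Most of the 77 could not leave that range. Leaving out 1 knockout array cannot move a mean by that SD, and the filters leave values unchanged. The probe set rules alter only Idi1 and Fdft1. The count is therefore largely fixed by the procedure and does not measure robustness. The SD of the knockout arrays is also wide for Fdps and Fdft1. These ran from -0.49 to -0.15 and from 0.19 to 0.46 on leaving out each knockout array. The 1 that turned sign was Fdft1, at -0.05 in knockout 3 against wild type 1 alone. In that pair 45 of the 71 pathway genes lay below and 24 above, and 9 and 17 of the 26 genes around Sqle and Fbxo32, as a single array must separate more often than 3. Without knockout 3 the pathway genes above numbered 27, the highest of a range from 16. No paired analysis was possible because the wild type group was 1 heart and no label pairs it with a knockout heart.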
